A study of Mus musculus with 3 samples.

Results

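The genes of sterol and fatty acid synthesis were followed in C2C12 cells, a continuous line of mouse myoblasts able to fuse into myotubes on differentiation. The set holds 33 genes, taken by symbol from the 46316 gene symbols in the tables: 6 of the mevalonate steps, 11 of the late sterol steps, 6 that regulate the pathway and 10 of fatty acid synthesis. The 3 libraries came from Drp1 knockout cells (KO), from Drp1 knockout cells transiently expressing FLAG-tagged Drp1 (rescue) and from wild-type cells (WT), all total RNA taken 4 days into myogenic differentiation. Drp1, the product of the gene Dnm1l, is the GTPase that divides mitochondria, and both KO and rescue cells carry the knockout. How the knockout was made, and whether the line is 1 clone, were not given in the sources used here. With 1 library per group, no difference below has a replicate check, and each statement describes these libraries.

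Cells make cholesterol from acetyl-CoA through mevalonate, then through isoprenoid diphosphates to squalene, and from squalene through lanosterol to cholesterol. Fatty acids are built from the same acetyl-CoA. Both sets of enzymes are controlled by the SREBP transcription factors, which are held in the endoplasmic reticulum by INSIG proteins and moved by SCAP when sterols are scarce. SREBP proteins bind sterol regulatory elements together with NF-Y, which binds CCAAT boxes. Cholesterol in the plasma membrane is known to affect the fusion of myoblasts.

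The promoters of a few members are shown because the coordinated differences described below concern genes known as SREBP targets. Capitals mark matches, on either strand, to TCACNCCA (a core of the sterol regulatory element), to CCAAT (the NF-Y box) or to CACGTG (an E-box), and the run is 5′ to 3′ in the direction of the gene. Each is a RefSeq window of build GRCm38.p6, 250 bases before to 50 after the annotated start. Hmgcs1, Msmo1 and Srebf2 hold the sterol element, Idi1 and Mvk hold NF-Y boxes only, and Scap, shown by 1 of its 2 windows, holds neither of these and has an E-box.
Hmgcs1, chr13:119690101-119690400, plus strand: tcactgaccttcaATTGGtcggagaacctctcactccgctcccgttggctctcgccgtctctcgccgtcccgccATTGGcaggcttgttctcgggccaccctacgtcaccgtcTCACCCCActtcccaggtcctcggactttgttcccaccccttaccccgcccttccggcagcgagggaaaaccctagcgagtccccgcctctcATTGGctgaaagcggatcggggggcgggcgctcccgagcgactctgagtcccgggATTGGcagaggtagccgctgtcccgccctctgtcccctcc
Msmo1, chr8:64733529-64733828, minus strand: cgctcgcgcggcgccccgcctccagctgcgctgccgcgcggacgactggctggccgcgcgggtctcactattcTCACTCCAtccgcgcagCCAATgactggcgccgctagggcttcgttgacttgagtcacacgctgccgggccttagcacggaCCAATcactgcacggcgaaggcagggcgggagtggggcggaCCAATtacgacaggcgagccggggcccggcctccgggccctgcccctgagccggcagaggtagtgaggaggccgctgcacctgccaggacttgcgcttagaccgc
Srebf2, chr15:82147019-82147318, plus strand: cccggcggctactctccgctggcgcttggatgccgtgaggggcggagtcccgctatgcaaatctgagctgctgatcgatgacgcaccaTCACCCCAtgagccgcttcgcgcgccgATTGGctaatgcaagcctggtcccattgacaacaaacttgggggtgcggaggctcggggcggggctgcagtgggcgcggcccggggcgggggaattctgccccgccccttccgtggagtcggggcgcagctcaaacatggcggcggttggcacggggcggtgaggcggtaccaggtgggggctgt
Idi1, chr13:8885356-8885655, plus strand: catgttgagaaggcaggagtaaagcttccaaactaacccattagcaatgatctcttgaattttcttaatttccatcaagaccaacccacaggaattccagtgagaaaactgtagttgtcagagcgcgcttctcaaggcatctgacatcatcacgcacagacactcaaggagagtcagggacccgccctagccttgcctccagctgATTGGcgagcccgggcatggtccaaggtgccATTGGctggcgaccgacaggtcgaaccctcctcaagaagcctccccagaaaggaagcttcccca
Mvk, chr5:114444019-114444318, plus strand: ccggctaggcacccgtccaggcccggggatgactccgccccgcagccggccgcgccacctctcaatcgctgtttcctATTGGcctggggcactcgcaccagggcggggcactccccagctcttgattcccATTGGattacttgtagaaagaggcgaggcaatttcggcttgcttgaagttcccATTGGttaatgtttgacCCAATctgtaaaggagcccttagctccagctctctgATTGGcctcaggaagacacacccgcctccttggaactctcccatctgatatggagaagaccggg
Scap, chr9:110333106-110333405, plus strand: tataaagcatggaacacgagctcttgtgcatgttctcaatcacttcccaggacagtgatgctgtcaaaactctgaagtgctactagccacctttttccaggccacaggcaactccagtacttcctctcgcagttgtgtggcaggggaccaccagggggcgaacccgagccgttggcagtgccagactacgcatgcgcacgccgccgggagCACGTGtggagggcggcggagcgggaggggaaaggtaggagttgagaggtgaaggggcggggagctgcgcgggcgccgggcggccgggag

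A promoter window was listed for 26 of the 33 genes. The NF-Y box was found in at least 1 window of 22 of them (84.6%), beside 41.1% of all 27025 genes in the RefSeq table and 43.5% of the 9457 protein-coding genes expressed here. At least 2 boxes in 1 window were found for 11 members (42.3%), beside 16.9% of the expressed protein-coding genes. All 14 sterol enzymes with a window had a box, as did 4 of the 7 fatty acid genes. The sterol element was matched in 3 members (11.5%), beside 4.41% of the expressed protein-coding genes, and the E-box in 5 (19.2%), beside 11.8%. In Hmgcs1 the sterol element began 137 bases before the annotated start. In Srebf2 it began 162 bases and in Msmo1 177 bases before it. A match describes letters in this window, and known elements that differ from these letters are missed.

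The libraries had similar depth, with 13790417 gene counts in KO, 13925296 in rescue and 13894114 in WT. The count of a gene was that of its transcript row with the highest count, and levels are given as TPM, the count per kilobase scaled to a common sum over 1 row per gene. Dnm1l had 1284 counts in KO, 1481 in rescue and 1823 in WT, so its RNA was still present in the library labelled KO and does not decide that label. All 8 myotube markers were detected in each library, from 1424 to 70182 counts in KO, 3527 to 86717 in rescue and 4406 to 61533 in WT. They were not level between libraries, as described further below. Of the 8 adipocyte markers, 6 had 0 counts in KO, 5 in rescue and 6 in WT, among them Adipoq, Lep and Cidec in all 3. Pparg was the one adipocyte marker above the low-count filter, with 147 counts in KO, 164 in rescue and 159 in WT.

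The desaturase genes Scd1 and Scd2, whose products put the first double bond into saturated fatty acids, dominated the set in every library. Scd1 stood at 599 TPM in KO, 549 in rescue and 811 in WT. Scd2 stood at 545 TPM in KO, 517 in rescue and 829 in WT. Together they held 49.4% of the counts of the set in KO, 48.8% in rescue and 50.4% in WT. Next in level came Fdps, with 218 TPM in KO, 261 in rescue and 424 in WT. The lowest level in KO and in WT was that of Acss2, at 11.2 and 15.5 TPM, and in rescue that of Elovl6, at 12.4 TPM.

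**Figure D1:**
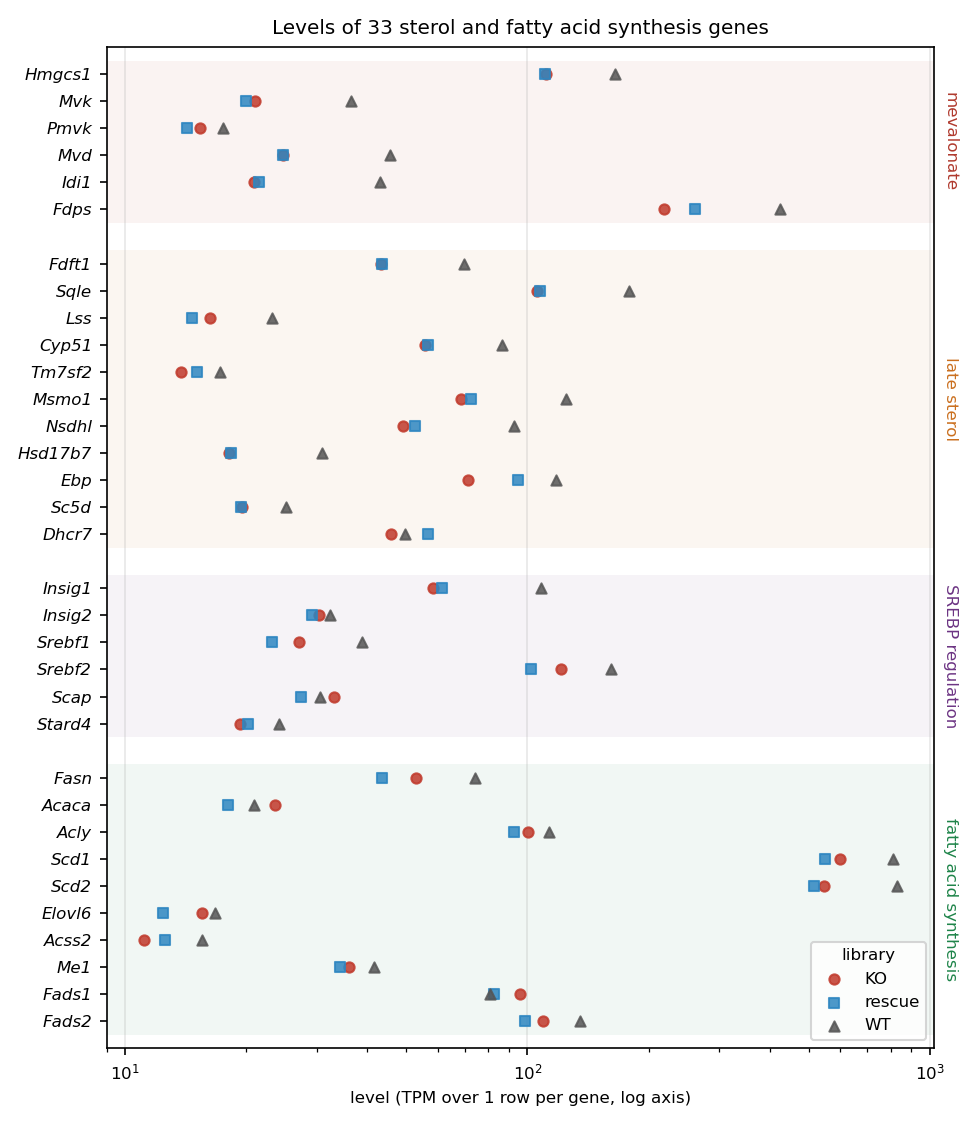
The plot of levels gives the TPM of each of the 33 genes in the KO, rescue and WT libraries on a log axis, 1 point per library. Scd1 and Scd2 lie furthest right in all 3 libraries, and for most genes the KO and rescue points lie close together and left of the WT point.

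Nearly the whole set stood lower in KO than in WT, with the sterol enzymes furthest below. All 17 enzymes of the mevalonate and late sterol steps were below WT, and their median log2 ratio was -0.79. Of the 33 members, 14 were lower by 1.5-fold or more and 0 were higher by that much, against 10.4% and 12.1% of all 13381 genes measured. At 2-fold, 2 members were lower and 0 higher, against 4.07% and 5.35% of all genes, so most of the ratios were moderate. The counting interval, a 95% interval that covers counting error only, lay wholly below 0 for 30 members and wholly above 0 for 1, against 29.3% and 29% of all genes. Among the 9576 genes with counts in the range of the members, 6.42% were at least 1.5-fold lower and 1.57% at least 2-fold lower. Their median log2 ratio was -0.0043, beside -0.55 for the 33 members.

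In the mevalonate steps the log2 ratios of KO against WT had a median of -0.90, and 5 of 6 genes were lower by 1.5-fold or more. Idi1, which interconverts the isoprenoid building blocks, had 366 counts in KO, 412 in rescue and 800 in WT. KO and rescue were both far below WT, with a log2 ratio of -1.10 for KO against WT (interval -1.29 to -0.92). Fdps, which joins these blocks into farnesyl diphosphate, had 1946 counts in KO, 2547 in rescue and 4023 in WT. Its log2 ratio of KO against WT was -1.02 (interval -1.10 to -0.94), and rescue lay between the other libraries.

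Mvd, which decarboxylates mevalonate diphosphate, had 281 counts in KO, 306 in rescue and 551 in WT (log2 ratio of KO against WT -0.94, interval -1.16 to -0.74). Mvk, mevalonate kinase, had 228 counts in KO, 237 in rescue and 421 in WT (-0.86, interval -1.10 to -0.62). For both, KO and rescue were nearly level and WT was high. Hmgcs1, the synthase that makes HMG-CoA at the head of the pathway, had 2561 counts in KO, 2782 in rescue and 4041 in WT (-0.63, interval -0.70 to -0.56). Pmvk, the kinase that follows Mvk, stood apart from its neighbours, with 297 counts in KO, 302 in rescue and 361 in WT (-0.26, interval -0.48 to -0.03).

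The late sterol steps, from the making of squalene to cholesterol, had a median of -0.75 on the log2 scale for KO over WT. Of the 11 genes, 7 were lower by 1.5-fold or more. Nsdhl, a dehydrogenase that helps remove the methyl groups of lanosterol, had 663 counts in KO, 776 in rescue and 1337 in WT (log2 ratio -0.99, interval -1.12 to -0.85). Msmo1, the oxidase acting on the same methyl groups, had 964 counts in KO, 1118 in rescue and 1870 in WT (-0.93, interval -1.04 to -0.82). Hsd17b7, the ketoreductase of that complex, had 516 counts in KO, 570 in rescue and 931 in WT (-0.83, interval -0.98 to -0.67). The 3 genes of this demethylation step thus differed from WT by similar ratios. Sqle, the squalene epoxidase, had 1773 counts in KO, 1967 in rescue and 3200 in WT (-0.83, interval -0.91 to -0.74).

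Of the other late sterol genes, Ebp, Fdft1 and Cyp51 were 1.73-fold, 1.68-fold and 1.62-fold lower in KO. Lss, which closes the sterol rings, was 1.496-fold lower, just under the 1.5-fold line. Sc5d, Tm7sf2 and Dhcr7 were 1.35-fold, 1.31-fold and 1.13-fold lower. Sc5d and Dhcr7, which act last on the ring before cholesterol, were thus nearer to WT than Cyp51, Msmo1, Nsdhl and Hsd17b7. Tm7sf2 was nearer to WT than Sc5d, so this was not particular to the last enzymes. Fdft1 shares 774 exon bases with Ctsb on the opposite strand, and Ctsb had 14488 counts in KO, 14240 in rescue and 14856 in WT. Tm7sf2 shares 532 exon bases with Vps51 on the same strand, so the counts of Fdft1 and Tm7sf2 may hold reads of those genes. Overlaps outside this step include Fdps, with 1124 exon bases shared with Gm43738 on the same strand, a gene not listed here. Srebf1 shares 109 with Rai1 on the opposite strand, which had 1171 counts in KO, 1028 in rescue and 830 in WT.

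The regulators did not stand together. Insig1, whose product retains SREBP and whose gene is itself an SREBP target, had 942 counts in KO, 1080 in rescue and 1856 in WT. Both KO and rescue lay well below WT, with a log2 ratio of -0.95 for KO against WT (interval -1.07 to -0.84). Insig2, its relative, had 1248 counts in KO, 1308 in rescue and 1410 in WT (-0.15, interval -0.26 to -0.04). The ratio of Insig1 to Insig2 counts, which does not depend on how libraries are scaled, was 0.755 in KO, 0.826 in rescue and 1.32 in WT. Its 95% counting interval was 0.693 to 0.822 in KO and 1.23 to 1.41 in WT, and did not overlap between them.

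Srebf2, which encodes the SREBP form tied to sterol enzymes, had 3996 counts in KO, 3668 in rescue and 5642 in WT (log2 ratio of KO against WT -0.47, interval -0.53 to -0.41). Srebf1, which encodes the forms tied to fatty acid genes, had 705 counts in KO, 657 in rescue and 1075 in WT (-0.58, interval -0.72 to -0.44), a 1.498-fold ratio. Rescue was the lowest library for both genes. The 8 rows of Srebf1 had nearly equal counts, the lowest 99.8% of the highest, so its forms cannot be told apart here. The Srebf1 to Srebf2 count ratio was 0.176 in KO, 0.179 in rescue and 0.191 in WT, with overlapping intervals. Stard4, a sterol carrier, had 623 counts in KO, 715 in rescue and 829 in WT (-0.39, interval -0.54 to -0.23). Scap, the escort of SREBP, had 853 counts in KO, 771 in rescue and 835 in WT, and the interval of KO against WT (-0.08 to 0.20) spanned 0.

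Fatty acid genes were less far below WT, with a median of -0.32 on the log2 scale for KO over WT and 1 of 10 members, Scd2, lower by 1.5-fold or more. Scd2 had 18133 counts in KO, 18810 in rescue and 29360 in WT (-0.67, interval -0.70 to -0.64). Scd1 had 17685 counts in KO, 17708 in rescue and 25501 in WT (-0.50, interval -0.53 to -0.47). Fasn, the fatty acid synthase, had 3208 counts in KO, 2891 in rescue and 4775 in WT (-0.55, interval -0.61 to -0.48). For these genes WT was the highest library by a wide margin. Acss2, which makes acetyl-CoA from acetate, had 193 counts in KO, 237 in rescue and 285 in WT (-0.54, interval -0.81 to -0.27). It shares exon bases with Gss and Ggt7 on the opposite strand.

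Acaca, the carboxylase that makes malonyl-CoA for Fasn, had 1381 counts in KO, 1153 in rescue and 1304 in WT, and its interval of KO against WT (-0.00192 to 0.22) spanned 0. Acly, which makes cytosolic acetyl-CoA from citrate, and Me1, a source of NADPH, were 1.18-fold and 1.21-fold lower in KO. Elovl6, an elongase, was 1.13-fold lower. Fads1, a desaturase of polyunsaturated fatty acids, was the one member with an interval wholly above 0, with 2067 counts in KO, 1955 in rescue and 1853 in WT (log2 ratio 0.18, interval 0.09 to 0.27). Its neighbour Fads2 had 1943 counts in KO, 1916 in rescue and 2546 in WT (-0.36, interval -0.45 to -0.28). The Fads1 to Fads2 count ratio was 1.06 in KO, 1.02 in rescue and 0.728 in WT.

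**Figure D2:**
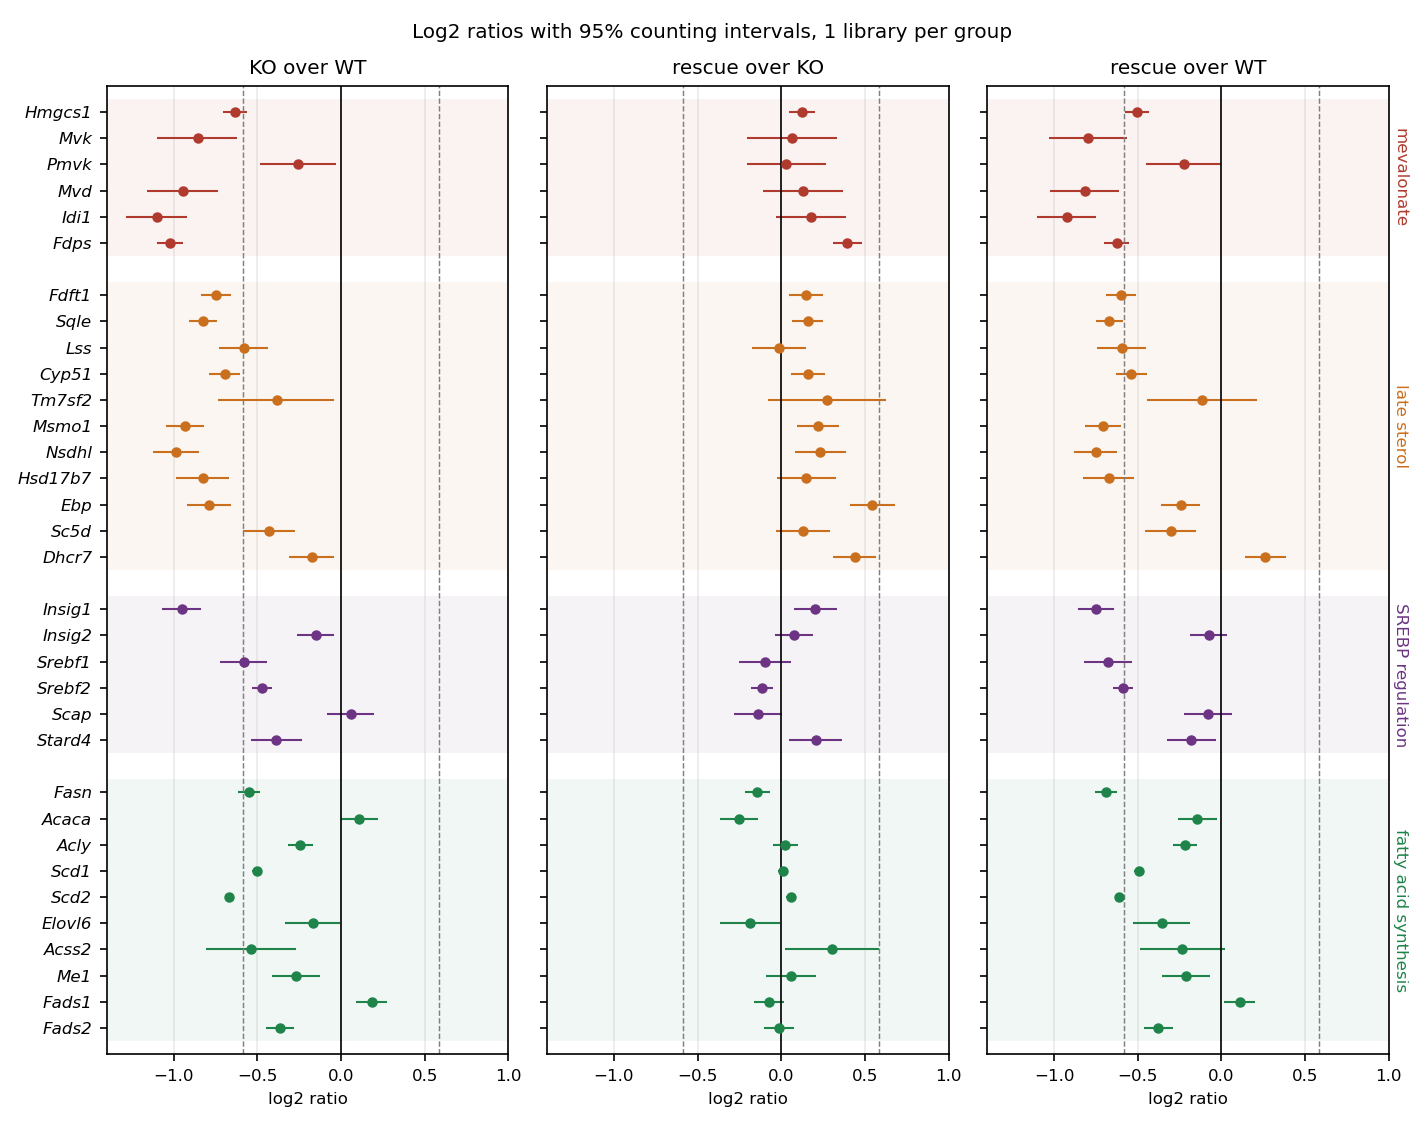
The plot of ratios gives the log2 ratio of each gene for KO over WT, rescue over KO and rescue over WT, with 95% counting intervals as bars and 1.5-fold as dashed lines. In KO over WT all 17 sterol enzymes lie left of 0, in rescue over KO no gene reaches either dashed line, and in rescue over WT Dhcr7 and Fads1 are the genes right of 0.

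Counts summed over each step were again furthest below WT for the sterol enzymes, while the order of regulators and fatty acid genes was the reverse of that of their medians. In KO the mevalonate genes held 56.7% of the WT sum after scaling, the late sterol genes 60.5%, the regulators 73.1% and the fatty acid genes 70.3%. Without Scd1 and Scd2 the fatty acid sum was 83.7% of WT, so those genes set the value of that step. The Fasn to Acaca count ratio was 2.32 in KO, 2.51 in rescue and 3.66 in WT, and the Scd1 to Scd2 ratio was 0.975 in KO, 0.941 in rescue and 0.869 in WT. Scd1 and Scd2 are close relatives, and how reads matching both were counted was not given in the sources used here. In RNA of whole cultures, fewer cells of a type and less RNA per cell cannot be told apart.

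**Figure D3:**
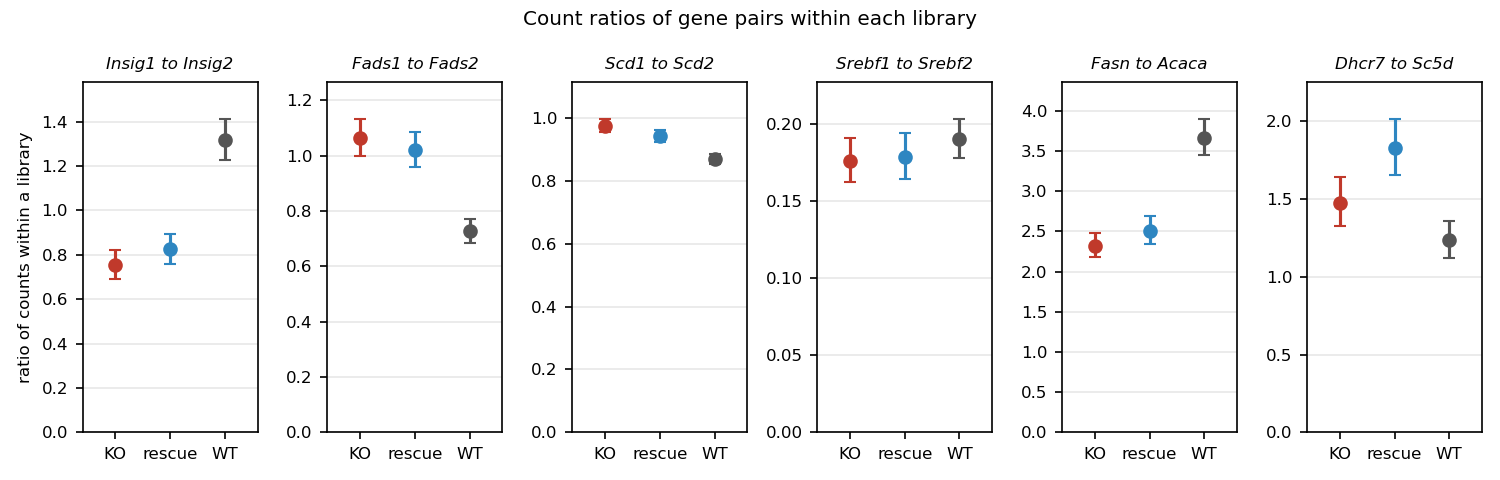
The plot of gene pairs gives, for KO, rescue and WT, the ratio of counts of 6 pairs within a library, with 95% counting intervals as bars and axes from 0. KO and rescue lie close together and apart from WT for Insig1 to Insig2, Fads1 to Fads2 and Fasn to Acaca, while for Dhcr7 to Sc5d rescue is the highest at 1.83, beside 1.47 in KO and 1.23 in WT.

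In rescue against KO, sterol enzymes were slightly higher and regulators and fatty acid genes were near 0. Of the 33 members, 0 were higher and 0 were lower by 1.5-fold or more, against 3.85% and 2.76% of all genes. At 2-fold these shares were 1.31% and 0.575% of all genes. The median log2 ratio was 0.13 for the mevalonate steps, 0.16 for the late sterol steps, -0.01 for the regulators and -0.00196 for fatty acid genes, beside 0.00719 for all genes. The counting interval lay wholly above 0 for 13 members and wholly below for 4, against 18.1% and 17.3% of all genes. Of the 17 sterol enzymes 16 were above 0 and 9 had an interval wholly above it. These comparisons share the KO library with those of KO against WT, so a KO value that is low by chance gives both a lower ratio there and a higher one here.

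The members furthest from KO, singled out after their values were seen, were Ebp, Dhcr7 and Fdps. Ebp, the isomerase that moves a double bond in the sterol ring, had 1099 counts in rescue, 757 in KO and 1331 in WT. Rescue exceeded KO by 1.46-fold (log2 ratio 0.54, interval 0.41 to 0.68) and was 1.18-fold lower than WT. Dhcr7, the reductase that yields cholesterol from its direct precursor, had 1165 counts in rescue, 864 in KO and 994 in WT. Rescue exceeded KO by 1.35-fold (0.44, interval 0.31 to 0.57), and Dhcr7 was the one sterol enzyme above WT in rescue (0.26, interval 0.14 to 0.39). For Fdps, rescue exceeded KO by 1.32-fold (0.40, interval 0.31 to 0.48).

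Below KO in rescue were Acaca (1.19-fold), Fasn (1.10-fold) and Srebf2 (1.08-fold), with intervals wholly below 0, and Elovl6 (1.14-fold, interval -0.36 to -0.01). These are long transcripts, and the KO library differed from the others by transcript length. Protein-coding genes with transcripts up to 2538 bases stood at a median of 0.13 (log2) for rescue over KO, and those above 4516 bases at -0.12. With that trend removed, the log2 ratio of Fasn was 0.05, of Acaca -0.07, of Srebf2 -0.03 and of Elovl6 -0.08, while Ebp had 0.43 and Dhcr7 0.42. Fdps, a short transcript, had 0.25 with the trend removed, beside 0.40 without, which lies below its counting interval. In KO against WT the 12 members above 4516 bases had a median of -0.49, beside 0.12 for all such genes, and the 7 members up to 2538 bases had -0.93, beside -0.12.

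Against WT, the rescue library stood below as KO did. Of the 33 members, 15 were lower by 1.5-fold or more and 0 were higher, against 7.93% and 10.5% of all genes. At 2-fold, 0 were lower and 0 higher, against 3.01% and 4.62% of all genes. The counting interval lay wholly below 0 for 27 members and wholly above 0 for 2, against 25.1% and 27.4% of all genes. The median log2 ratio was -0.71 for the mevalonate steps, -0.59 for the late sterol steps, -0.38 for the regulators and -0.30 for fatty acid genes. Idi1 was still the lowest, at -0.92 (interval -1.10 to -0.75). The summed counts were 66.1% of WT for mevalonate genes, 70.2% for late sterol genes, 72.0% for regulators and 70.7% for fatty acid genes. This comparison shares the WT library with that of KO against WT.

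**Figure D4:**
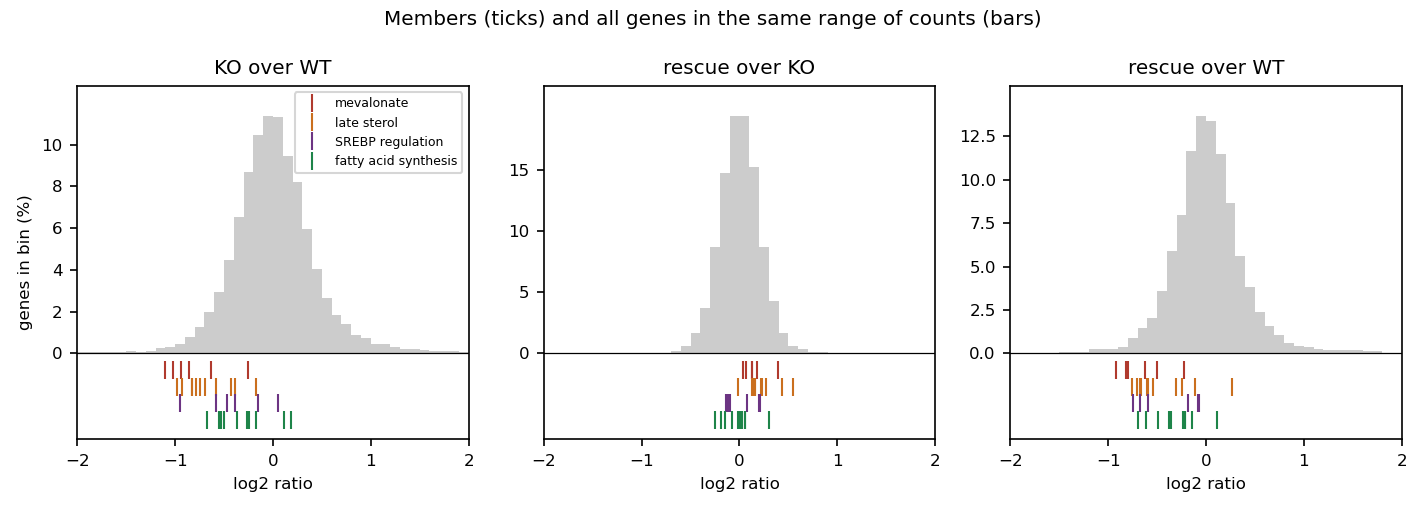
The histograms give the share of genes per 0.1 bin of log2 ratio among the 9576 genes with counts in the range of the members, on an axis cut at 2 either side, with a tick for each member coloured by step. Most mevalonate and late sterol ticks lie in the left tail in KO over WT and in rescue over WT, with Dhcr7 right of 0 in the last, and near the centre or right of it in rescue over KO.

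The promoter windows shown above can be set beside the ratios. The 4 members with a window and no NF-Y box, Acaca, Scap, Elovl6 and Fads2, had log2 ratios of KO against WT between -0.36 and 0.11. The 11 members with 1 box in their richest window had a median of -0.47, and the 11 with 2 or more had a median of -0.83. Insig2 and Dhcr7, with 3 and 2 boxes, had ratios near 0, and Insig1, with 1 box, was among the lowest, so the number of boxes did not order the genes one by one. Most of the genes with several boxes are sterol enzymes, so step and boxes largely overlap in these 26 genes. Among the 14 sterol enzymes with a window, the 9 with 2 or more boxes had a median of -0.86 (range -1.10 to -0.18). Those with 1 box were Cyp51 (-0.70), Lss (-0.58), Sc5d (-0.43), Tm7sf2 (-0.39) and Pmvk (-0.26), all within that range. The grouping by boxes was made after the ratios were known and has no test.

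**Figure D5:**
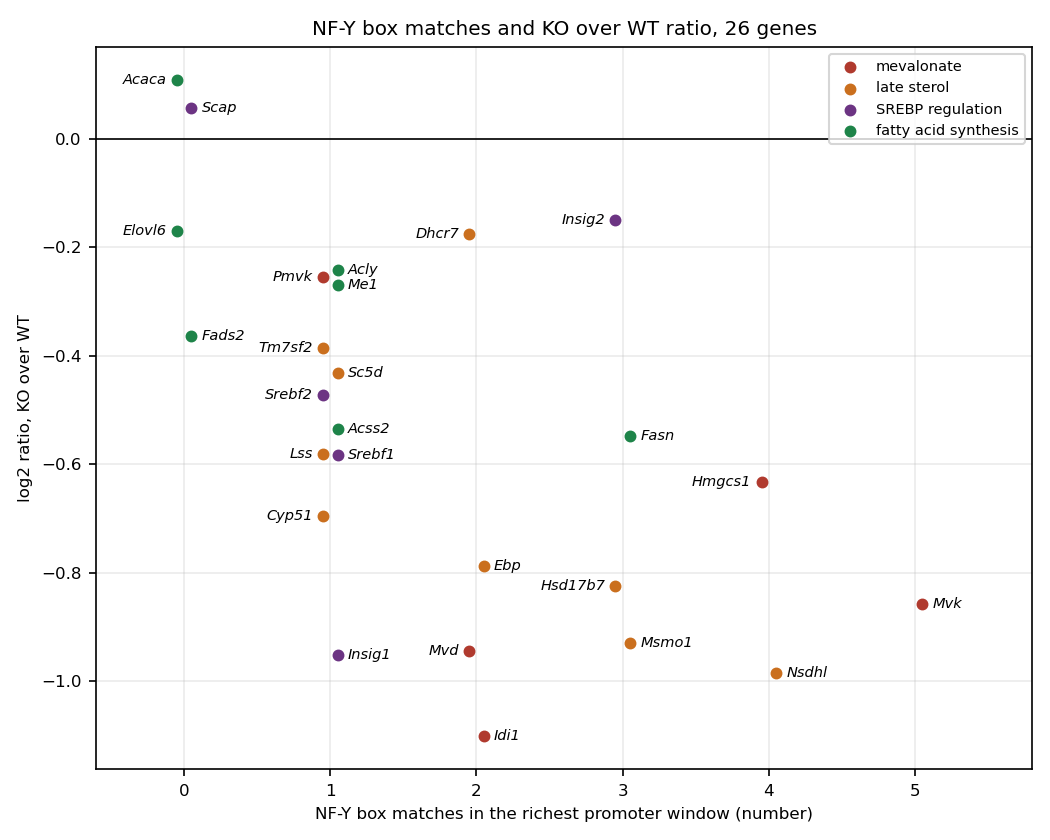
The plot of boxes gives, for the 26 genes with a promoter window, the number of NF-Y box matches in the richest window against the log2 ratio of KO over WT, with points shifted slightly sideways for legibility. The 4 genes without a match lie between -0.36 and 0.11, and the 11 genes with 2 or more matches lie between -1.10 and -0.15.

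Genes that surround the pathway had medians near 0. The 12 genes that use isoprenoids or process prenylated proteins had a median log2 ratio of -0.04 for KO against WT. In KO, 0 were higher and 2 were lower by 1.5-fold or more, against 12.1% and 10.4% of all genes. These were Dhdds (-0.61, interval -0.78 to -0.45), which builds dolichol, and Pdss1 (-0.60, interval -1.05 to -0.17), which builds the side chain of ubiquinone. The furthest above WT were Pdss2 (0.18, interval -0.14 to 0.50) and Coq2 (0.10, interval -0.09 to 0.29), both of ubiquinone synthesis, with intervals that spanned 0. Ggps1, which makes geranylgeranyl diphosphate from the product of Fdps and was named after its values were seen, had 543 counts in KO, 566 in rescue and 545 in WT.

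The 14 genes that move, cleave or degrade the SREBP machinery had a median of -0.03. Of them, 1 was at least 1.5-fold lower and 1 at least 1.5-fold higher in KO, against 10.4% and 12.1% of all genes. The ubiquitin-conjugating enzyme gene Ube2g2 was at -0.61 (interval -0.70 to -0.53) and Erlin1, an endoplasmic reticulum protein that acts in the degradation of sterol-regulated proteins, at 0.61 (interval 0.43 to 0.78). Next came Sec13 (-0.42), a coat protein of vesicles leaving the endoplasmic reticulum, and Mbtps2 (0.51), a protease that frees SREBP. Mbtps1, the other protease, was named after its value was seen and stood at -0.09.

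Of 14 genes of sterol uptake, storage and efflux, 10 passed the low-count filter, with a median of 0.13 in KO against WT. Ch25h, which makes 25-hydroxycholesterol, an oxysterol that binds INSIG, had 56 counts in KO, 50 in rescue and 4 in WT (log2 ratio of KO against WT 3.68, interval 2.40 to 5.76). Abca1, the cholesterol exporter, had 53 counts in KO, 31 in rescue and 25 in WT (1.09, interval 0.40 to 1.86). Both are low counts, and their relation to the sterol enzymes was not tested. Ch25h passed the filter, which is set on the mean of the libraries, only through its KO and rescue counts. The filter thus favoured a higher ratio for Ch25h. Below WT were Stard3 (-0.35, interval -0.56 to -0.14), which moves sterol at endosomes, and Mylip (-0.10, interval -0.35 to 0.15), a ubiquitin ligase. Soat1, which esterifies cholesterol and was named after its values were seen, had 2226 counts in KO, 1781 in rescue and 1591 in WT (0.51, interval 0.42 to 0.60).

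Of 25 genes of fatty acid activation, elongation and lipid assembly, 23 passed the filter. The median was 0.08. In KO, 3 were higher and 0 were lower by 1.5-fold or more, against 12.1% and 10.4% of all genes. These were Acacb, the carboxylase that acts at mitochondria, with 26 counts in KO, 16 in rescue and 5 in WT, Dgat2 (0.73, interval 0.40 to 1.06), which completes triglycerides, and Lpin1 (0.62, interval 0.32 to 0.93), which acts before it. The number higher, 3 of 23, was close to the share of all genes. Acacb passed the filter, which is set on the mean of the libraries, only through its KO and rescue counts. The filter thus favoured a higher ratio for Acacb. The furthest below WT were Tecr (-0.53) and Acsl4 (-0.47).

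Proliferation markers, like the sterol enzymes, stood below WT in KO. All 10 were lower in KO than in WT with intervals wholly below 0, against 29.3% of all genes. Their median was -0.51, and they summed to 7602 counts in KO, 7776 in rescue and 10774 in WT. In rescue against KO, 7 of the 10 were above 0 and 2 had an interval wholly above it, against 18.1% of all genes. For the 17 sterol enzymes these numbers were 16 and 9. The 6 fibroblast markers summed to 30750 counts in KO, 28779 in rescue and 11661 in WT, with Postn and Col1a1 higher in KO and Dcn lower. The 7 myoblast markers summed to 2987 counts in KO, 2990 in rescue and 4473 in WT, but did not move together. Of the 6 that passed the low-count filter, 4 had an interval wholly below 0 in KO against WT and 1 wholly above. Among all genes these shares were 29.3% and 29%. Heyl, a target of Notch signalling, had 64 counts in KO, 58 in rescue and 622 in WT. Id1, an inhibitor of myogenic factors, had 114 counts in KO, 121 in rescue and 70 in WT (log2 ratio of KO against WT 0.73, interval 0.29 to 1.18). Of the 8 myotube markers, 4 were above and 4 below WT in KO. In rescue against KO, 7 were above 0, beside 6825 of all 13381 genes, with a median log2 ratio of 0.32. Ckm differed most, with 1424 counts in KO, 3527 in rescue and 4406 in WT. Myog went the other way against WT, with 16122 counts in KO, 17277 in rescue and 11853 in WT. The part of dividing cells or of other cell states in the lower level of the sterol genes was not tested.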

How the data were processed

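RNA of 3 C2C12 libraries, 1 per group (KO, rescue, WT, by the genotype label), was analysed. Cutadapt 1.9.1, featureCounts 2.0.0, HISAT2 2.2.1 and build GRCm39 (mm39) are named in the submitters' processing notes. Per the labels' protocols, TRIzol was used for RNA and a DNBSEQ-G400RS kit for libraries. Strand, multi-mapping and overlap settings were not given in the sources used here. Per the file headers, the deposited tables list raw count, RPKM and TPM values for 139023 transcript rows. The RPKM and TPM deposited by the authors equalled values recomputed from the counts to within 4.98e-06 and were not used further.

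Per gene, the row with the highest summed count was taken. Rows of many members nearly repeated each other, but not of all. The lowest row held 22.7% of the highest for Hsd17b7, 32.2% for Lss and 54.5% for Msmo1. Log2 ratios of KO against WT differed between rows of a member by 0.09 at most, in Pmvk. The rows used for Lss and Mvd were of the type misc_RNA. The sum over rows and the longest row were alternatives. Scaling used TMM factors from edgeR 4.0.16 (R 4.3.3) (1.00 for KO, 0.987 for rescue, 1.01 for WT). For log2 ratios 0.5 was added to every count. A mean CPM of at least 1 left 13381 genes, and all 33 members passed. Intervals are exact conditional (Clopper-Pearson) 95% intervals. They cover counting error only: without molecular identifiers, reads are not independent molecules. With 1 library per group no p-value was computed. The interval code was tested on simulated data.

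The members and lists were chosen with earlier results of these data known. Values in full are given for up to 4 members per step with the largest ratio of KO against WT, for paired relatives and for pathway heads, and for up to 2 genes per direction of each surrounding list. Other genes named outside this rule, such as Lpin1 and the remaining members, were described with their values known. The pairs Fasn to Acaca and Dhcr7 to Sc5d were chosen after their values were seen. Promoter windows came from RefSeq (GRCm38.p6) and exon overlaps from GENCODE M21 (GRCm38), neither of which is the build of the tables. Comparison of protein sequences was not done here.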

Additional observations from a re-analysis of the deposited data

How the results depend on the processing

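Medians per step and counts of members at least 1.5-fold or 2-fold from the other library were computed again under 8 alternatives: DESeq2 size factors, total counts, no low-count filter, a mean of 10 or more CPM, the sum over rows, the longest row, an offset of 5 and removal of the transcript length trend. Of these, 215 of 216 stayed within a set range. A median had to lie between the medians of its members' lower and upper interval bounds, which is not an interval of the median itself. A count had to be within 1.5 times that of the main setting. Outside its range was the number of members at least 2-fold lower in KO, which was 1 with the length trend removed, beside 2. The 2 filter alternatives could not move any value, since all 33 members passed both filters. By design, each of them left 27 of these values and 99 of the single-member values unchanged. Of 792 values of single members, 17 left their counting interval, 15 of them with the length trend removed. The number at least 1.5-fold lower in KO was 17 with that trend removed, beside 14, as genes near the line crossed it. Acaca in KO against WT had a log2 ratio of -0.07 there, beside 0.11, so its direction is not settled. Fasn in rescue against KO had 0.05 there, beside -0.14. The medians of the regulators and fatty acid genes in rescue against KO were 0.07 and 0.05 there, beside -0.01 and -0.00196.

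No paired analysis was possible because each group has 1 library, and leaving out a library would leave a group empty. Depth limits Ch25h, Abca1 and Acacb, which had few counts in WT.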
